A study of Mus musculus with 8 samples.

Results

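The genes described here encode 10 secreted proteins of the extracellular matrix: the large adhesive glycoprotein fibronectin (Fn1), the matricellular proteins tenascin-C (Tnc), periostin (Postn), SPARC (Sparc), thrombospondin-1 (Thbs1), thrombospondin-2 (Thbs2) and CTHRC1 (Cthrc1), the large proteoglycan versican (Vcan), and the small leucine-rich proteoglycans decorin (Dcn) and lumican (Lum). They were chosen by gene symbol, by a rule that uses no measured value but was written with earlier results of these data known, and all 10 were among the 18768 genes of the count table. Of these, 9 were among the 15153 genes that passed a filter on low counts and were tested. Lum, with 0 to 20 counts per library, was not. RNA was sequenced from 4 mouse fibrosarcoma lines, with 2 libraries per line. WT mice and IRF8 KO mice had each received 100 µg of methylcholanthrene (MCA), a chemical carcinogen, under the skin, and each line was grown from the cells of a tumor taken about 3 months later and cultured for at least 10 passages. The label IRF8 KO belongs to the lines MC010 and MC011, and the label WT to MC654 and MC659. IRF8 is a transcription factor best known for its role in the development of myeloid cells, and the series asked how its loss changes gene expression in the tumor cells. All 4 lines share the MCA treatment, and the strain is not given per sample. Because 1 line stands for 1 tumor, the label sets 2 tumors against 2, and the libraries of a line are not independent, so that p-values over the 4 libraries of a label measure the spread between these libraries and not between mice. Tests and intervals between 2 lines rest on the spread between the 2 libraries of a line, and each sets 1 tumor against 1. A fit with a line left out keeps 1 tumor under that line's label.

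Matricellular proteins are secreted into the matrix but serve less as scaffold than as signals: they bind cell-surface receptors, growth factors and other matrix proteins and so alter adhesion, migration and matrix assembly. Fibronectin is assembled into fibrils by integrins and forms a template on which collagens and other proteins are laid down. Versican carries chondroitin sulfate chains and binds hyaluronan, which gives a loose, hydrated matrix, whereas decorin and lumican bind collagen fibrils and regulate their spacing. Fibroblasts and tumors of mesenchymal origin are major sources of most of these proteins.

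The promoters of 5 members (Tnc, Postn, Sparc, Thbs2 and Vcan) were in the RefSeq promoter table of build GRCm38.p6, each as 250 bases before to 50 bases after a start. Those of Vcan, Thbs2 and Tnc are shown because these members had their highest RNA levels in both KO-labelled lines, in MC010 alone and in both WT-labelled lines, respectively. All 3 lie on the minus strand, are printed 5′ to 3′, and have in capitals each match to CAGACA on either strand (TGTCTG on the other), which holds the CAGAC box bound by SMAD proteins.
Vcan, chr13:89742463-89742762: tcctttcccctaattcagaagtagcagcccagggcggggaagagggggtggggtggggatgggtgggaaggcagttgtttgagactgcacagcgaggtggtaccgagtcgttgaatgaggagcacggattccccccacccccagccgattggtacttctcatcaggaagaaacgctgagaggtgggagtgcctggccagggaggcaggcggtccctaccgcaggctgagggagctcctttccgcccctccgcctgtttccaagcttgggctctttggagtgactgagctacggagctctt
Thbs2, chr17:14694213-14694512: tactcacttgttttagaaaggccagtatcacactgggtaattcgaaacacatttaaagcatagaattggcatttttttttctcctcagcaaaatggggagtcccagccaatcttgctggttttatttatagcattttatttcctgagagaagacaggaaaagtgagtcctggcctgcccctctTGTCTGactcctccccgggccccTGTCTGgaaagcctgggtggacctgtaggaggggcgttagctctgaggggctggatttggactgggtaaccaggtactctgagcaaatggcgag
Tnc, chr4:64046966-64047265: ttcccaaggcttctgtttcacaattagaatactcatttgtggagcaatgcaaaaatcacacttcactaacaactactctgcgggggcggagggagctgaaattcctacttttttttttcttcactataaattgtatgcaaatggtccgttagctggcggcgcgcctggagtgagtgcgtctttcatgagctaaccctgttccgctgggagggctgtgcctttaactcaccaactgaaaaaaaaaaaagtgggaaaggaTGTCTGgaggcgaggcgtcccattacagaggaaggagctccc
The Thbs2 window held 2 matches, both before the start, the Tnc window held 1, after the start, and the Vcan window held 0. A second window of Tnc in the table, for a start further downstream, held 2 matches, 1 before and 1 after that start. A match to CAGACA stood in 21.0% of all 32851 promoters of the table. The AP-1 motif TGAGTCA, whose other strand reads TGACTCA, and the TEAD motif GGAATG stood in 5.20% and 14.7% of all promoters and in none of these 3 windows. These matches describe letters only.

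The libraries held 74063616 to 116206078 counts, and levels are in CPM, which divides a count by the TMM-adjusted library size. RNA of the targeted gene did not follow the labels: Irf8 had 442 and 347 counts in MC010, 32 and 10 in MC011, 1 and 2 in MC654, and 1 and 0 in MC659 (adjusted p = 0.00570, edgeR's quasi-likelihood test). In the paper, the labels were backed by PCR genotyping of genomic DNA from the 4 lines. Totals per gene cannot tell RNA of a disrupted Irf8 allele from intact Irf8 RNA, and this was not examined here. The lines are called KO-labelled and WT-labelled. As a check of the cell type, all 10 mesenchymal markers were in the table, with a summed level of 7130 to 9202 CPM in the KO-labelled libraries and 5616 to 6023 CPM in the WT-labelled ones. Vim made up most of this sum, at 5240 to 7384 CPM against 4532 to 4900 CPM. By the call rule given below, 4 of these 10 were higher between the labels and 0 lower (13.7% and 8.72% of all genes tested). They were Pdgfra (log2 fold change 3.82), S100a4 (2.17), Thy1 (1.93) and Prrx1 (1.13). Pdgfra, S100a4 and Thy1 were highest in MC011 and Prrx1 in MC010. For Thy1 only MC011 was high (70.2 CPM), while MC010 (12.33 CPM) lay beside MC659 (12.35 CPM) and MC654 (9.23 CPM). Of 10 hematopoietic markers 4 were in the table, summing to 5.72 to 7.38 CPM against 9.67 to 11.5 CPM. The leukocyte marker Ptprc had 0 to 18 counts and Cd68 had 415 to 913. Of the 2 tested, 0 were called higher and 1 lower, Csf1r (-1.93). Of 8 endothelial markers 6 were in the table, at 1.05 to 2.47 CPM against 0.703 to 0.887 CPM. Of the 5 tested, 2 were called higher and 0 lower, beside the same shares of all genes. The higher ones were Tek (2.37) and Tie1, which had 0 CPM in all WT-labelled libraries. Cdh5 (-1.12), Pecam1 (-0.69) and Vwf (-0.36) were not called. Markers of smooth muscle and of epithelium also moved with some members and are given beside them. The part of the mesenchymal, hematopoietic and endothelial markers in the results was not tested. Fewer cells of a type and less RNA per cell cannot be told apart in such bulk RNA.

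Between the labels, the members split into 3 that were lower in the KO-labelled libraries (Fn1, Thbs1 and Tnc), 3 that were higher (Cthrc1, Vcan and Thbs2) and 3 that were not called (Sparc, Postn and Dcn). A gene was called where edgeR's adjusted p was under 0.05 and the log2 fold change was above 0.59 in size. Thus 6 of the 9 members tested were called, where 22.5% of all genes tested were (13.7% higher and 8.72% lower). The median size of the log2 fold change was 1.71 over the 9 members and 0.36 over all genes tested. For the same 6 members the 4 libraries of one label did not overlap the 4 of the other, which held for 42.5% of all genes (22.1% with the KO-labelled libraries above and 20.5% with them below). An exact two-sided permutation test over libraries gave p = 0.0286 for each of the 6, the smallest p that 4 against 4 allows, and over the 2 lines per label the smallest possible p is 0.333. When the 2 libraries of each line were added together, which leaves 2 lines against 2, none of the members was called, and edgeR called 0 genes of all tested, with 3361 at an unadjusted p under 0.05.

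**Figure D1:**
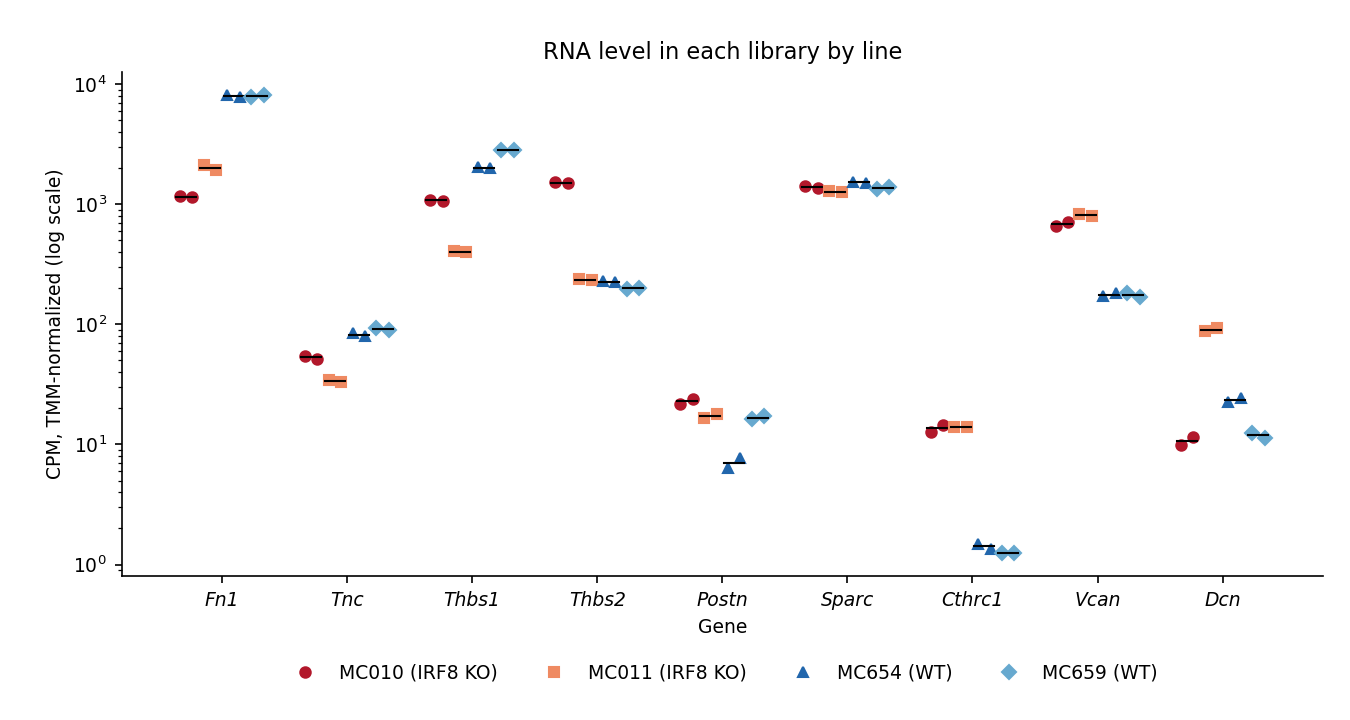
RNA level of the 9 tested members in each of the 8 libraries, in CPM on a log scale, with color and shape giving the line and a short bar the mean of its 2 libraries. Fn1, Tnc and Thbs1 lie lower and Vcan and Cthrc1 higher in both KO-labelled lines, Thbs2 stands apart in MC010 (1510 CPM), Dcn in MC011 (90.1 CPM) and Postn in MC654 (7.02 CPM), and Sparc is nearly level.

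Fibronectin was the member with the most counts in the WT-labelled lines, and it was lower in both KO-labelled lines. For Fn1 (ENSMUSG00000026193, chromosome 1 of mm10, 71585520 to 71653200), MC010 had 1164 and 1142 CPM, MC011 2112 and 1931 CPM, MC654 8132 and 7779 CPM, and MC659 7885 and 8096 CPM. Both WT-labelled lines were high and alike, and every KO-labelled library was far below them. The mean was 1587 ± 507 CPM (SD over 4 libraries, n = 4) in the KO-labelled libraries against 7973 ± 169 CPM (SD, n = 4) in the WT-labelled ones, a log2 fold change of -2.33 with a standard error of 0.22 (5.02-fold lower, adjusted p = 0.000159). This one gene took up 0.777 to 0.807% of all counts of a WT-labelled library and 0.113 to 0.216% of a KO-labelled one. With any 1 library left out, the log2 fold change lay between -2.50 and -2.21, and the gene stayed called in all 8 fits. With line sums the adjusted p was 0.0819. MC010 was lower than MC011 by a log2 difference of -0.81 (adjusted p = 6.22e-10), whereas MC654 and MC659 differed by -0.01 (95% interval -0.11 to 0.09, adjusted p = 0.954).

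Thrombospondin-1, which binds CD47 and CD36, activates latent TGF-beta and inhibits angiogenesis, differed among all 4 lines. For Thbs1 (ENSMUSG00000040152, chromosome 2, 118111876 to 118127133), MC010 had 1090 and 1066 CPM, MC011 406.6 and 397.3 CPM, MC654 2045 and 1993 CPM, and MC659 2815 and 2848 CPM. The order of the lines was MC011, MC010, MC654, MC659, with no overlap between any of them. Its label means were 740 ± 390 CPM against 2425 ± 470 CPM (SD, n = 4 libraries each), a log2 fold change of -1.71 with a standard error of 0.38 (adjusted p = 0.00925). Without the line MC659 the log2 difference fell to -1.46 with an adjusted p of 0.102, and with line sums the adjusted p was 0.200. MC010 exceeded MC011 by 1.42 on the log2 scale (adjusted p = 1.56e-13), while MC654 was below MC659 by -0.49 (adjusted p = 7.42e-07), under the fold threshold.

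Tenascin-C, a hexameric glycoprotein that weakens cell adhesion to fibronectin and is induced in wounds and tumors, showed a smaller change in the direction of Fn1 and Thbs1. For Tnc (ENSMUSG00000028364, chromosome 4, 63959785 to 64047015), whose promoter is printed above, MC010 had 54.6 and 51.8 CPM, MC011 34.2 and 33.0 CPM, MC654 83.9 and 79.8 CPM, and MC659 93.5 and 89.3 CPM. All KO-labelled libraries lay below all WT-labelled ones, with MC011 the lowest line. Label means of 43.4 ± 11.4 and 86.6 ± 5.99 CPM (SD, n = 4 libraries each) gave a log2 fold change of -0.996 with a standard error of 0.18 (adjusted p = 0.00333). Without MC659 it was -0.93 with an adjusted p of 0.0540, and with line sums the adjusted p was 0.160. The lines MC654 and MC659 differed by -0.16 (95% interval -0.27 to -0.05, adjusted p = 0.0608), which missed the threshold.
Of the smooth muscle and pericyte markers, 7 of 8 of which were in the table, 2 were called lower and moved with these 3 members. Another 1 was called higher (of all genes tested, 8.72% were lower and 13.7% higher). The summed level of these markers was 83.3 to 171 CPM in the KO-labelled and 452 to 718 CPM in the WT-labelled libraries. It was carried by Acta2 (log2 fold change -1.83) and Tagln (-4.18). Mcam was higher in the KO-labelled libraries (0.85, adjusted p = 0.00223), and Rgs5 (1.06) and Cnn1 (-0.49) were not called, while the defining marker Myh11 had 9 to 22 counts and Des 0 to 32. The part of these markers in the result was not tested.

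Versican and CTHRC1 were higher in both KO-labelled lines and varied little within a label. For Vcan (ENSMUSG00000021614, chromosome 13, 89655312 to 89742509), MC010 had 656.8 and 711.8 CPM, MC011 832.6 and 795.7 CPM, MC654 172.7 and 181.1 CPM, and MC659 181.8 and 169.2 CPM. The lowest KO-labelled library thus stood well above the highest WT-labelled one. The means were 749 ± 79.7 CPM against 176 ± 6.26 CPM (SD, n = 4 libraries each), a log2 fold change of 2.09 with a standard error of 0.08 (4.25-fold, adjusted p = 3.06e-06). The 4 differences between a KO-labelled and a WT-labelled line ran from 1.95 to 2.21, and the WT-labelled lines differed from each other by 0.01 (95% interval -0.10 to 0.12, adjusted p = 0.928). MC010 was slightly below MC011, at -0.25 (adjusted p = 0.000549).
CTHRC1 is a secreted protein with a short collagen repeat that is known as a marker of activated fibroblasts and acts in noncanonical WNT signaling. For Cthrc1 (ENSMUSG00000054196, chromosome 15, 39076932 to 39087121), MC010 had 12.8 and 14.6 CPM, MC011 13.9 and 14.1 CPM, MC654 1.49 and 1.34 CPM, and MC659 1.26 and 1.25 CPM. The levels were low, but the least covered library still held 111 counts, and the labels did not overlap. Means of 13.8 ± 0.779 and 1.33 ± 0.111 CPM (SD, n = 4 libraries each) gave the largest log2 fold change of the 9 members tested, 3.38 (standard error 0.13, 10.4-fold, adjusted p = 2.73e-06). MC010 and MC011 differed by -0.03 (95% interval -0.25 to 0.19, adjusted p = 0.822) and MC654 and MC659 by 0.18 (95% interval -0.15 to 0.50, adjusted p = 0.518). Both genes stayed called with any 1 library or any 1 line left out, and with line sums their adjusted p was 0.0512 for Vcan and 0.0577 for Cthrc1.

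Thrombospondin-2, a trimeric relative of thrombospondin-1 that inhibits angiogenesis and is needed for normal collagen fibrils, was called higher between the labels, but its values set 1 line apart rather than 1 label. For Thbs2 (ENSMUSG00000023885, chromosome 17, 14665500 to 14694262), MC010 had 1519 and 1501 CPM, MC011 238.1 and 233.8 CPM, MC654 227.5 and 223.4 CPM, and MC659 197.1 and 200.5 CPM. MC010 was thus several-fold above the other 3 lines, which lay close together. The label means of 873 ± 736 and 212 ± 15.5 CPM (SD, n = 4 libraries each) gave a log2 fold change of 2.04 with a standard error of 0.66 (adjusted p = 0.0403). Without MC010 it was 0.13 with an adjusted p of 0.110, and MC011 differed from MC654 by 0.07 (adjusted p = 0.174) and from MC659 by 0.25 (adjusted p = 7.37e-05, under the fold threshold). The adjusted p was 0.207 without MC654, 0.242 without MC659, 0.0650 with the library number as a block and 0.206 in limma-voom with a random block per line. With 1 library left out it ran from 0.0145 to 0.0997 and was under 0.05 in 2 of 8 fits, those without a library of MC011.
MC010 exceeded MC011 by 2.68 on the log2 scale (6.40-fold, adjusted p = 2.55e-16). MC010 was also highest in the keratins Krt8 and Krt18, though not in the rest of the epithelial list: Krt8 had 284 CPM in MC010, 1.29 in MC011, 20.0 in MC654 and 37.6 in MC659, and Krt18 had 264, 31.4, 108 and 80.5 CPM. The 6 of 8 epithelial markers in the table summed to 34.1 to 565 CPM in KO-labelled and 114 to 129 CPM in WT-labelled libraries, with the defining markers Epcam at 10 to 115 counts and Cdh1 at 0 to 38. In MC010 against MC011, Krt14 (-3.96), Epcam (-1.54) and Cdh1 (-4.73) were called lower, opposite to Krt8 (7.78) and Krt18 (3.07). The part of these markers in the Thbs2 result was not tested.

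SPARC, a collagen-binding glycoprotein that acts in collagen processing and counters cell spreading, was abundant and nearly constant. For Sparc (ENSMUSG00000018593, chromosome 11, 55394500 to 55423183), MC010 had 1420 and 1371 CPM, MC011 1277 and 1257 CPM, MC654 1544 and 1503 CPM, and MC659 1340 and 1392 CPM. The libraries of the labels overlapped, and the highest line mean was 1.20 times the lowest. Its log2 fold change between the labels was -0.12 (95% interval -0.28 to 0.04, adjusted p = 0.213).
Periostin, a ligand of integrins that promotes collagen cross-linking, differed instead between the WT-labelled lines. For Postn (ENSMUSG00000027750, chromosome 3, 54361109 to 54391037), MC010 had 21.9 and 24.1 CPM, MC011 16.7 and 18.0 CPM, MC654 6.32 and 7.73 CPM, and MC659 16.2 and 17.3 CPM. MC654 was the low line, and MC659 overlapped MC011. MC654 was below MC659 by a log2 difference of -1.25 (adjusted p = 5.14e-07), and MC011 and MC659 differed by 0.05 (95% interval -0.14 to 0.25, adjusted p = 0.647). Between the labels the log2 fold change was 0.77 (95% interval -0.01 to 1.54, adjusted p = 0.111). Without MC659, which left the low line MC654 as the only WT-labelled line, it was 1.51 with an adjusted p of 0.00921.

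Decorin, which binds collagen fibrils and sequesters TGF-beta, had its high level in 1 KO-labelled line and its lowest in the other. For Dcn (ENSMUSG00000019929, chromosome 10, 97479609 to 97518143), MC010 had 9.97 and 11.5 CPM, MC011 87.5 and 92.7 CPM, MC654 22.6 and 24.6 CPM, and MC659 12.4 and 11.4 CPM. The labels overlapped, since MC010 lay beside MC659 (log2 difference -0.15, 95% interval -0.33 to 0.02, adjusted p = 0.112). MC010 was lower than MC011 by -3.08 on the log2 scale (8.43-fold, adjusted p = 5.32e-14), the largest of the differences between lines of one label among the members. MC654 exceeded MC659 by 0.99 (adjusted p = 5.81e-07). Between the labels the log2 fold change was 1.51 (95% interval -0.26 to 3.28, adjusted p = 0.160). It was 2.33 without MC010 (adjusted p = 0.00563) and -0.73 without MC011 (adjusted p = 0.153). Each of these fits kept only 1 KO-labelled line.
Lumican, the neighbor of decorin 47.0 kb away on the same strand, was close to undetected. Lum (ENSMUSG00000036446, chromosome 10, 97565128 to 97572703) had 2 and 0 counts in MC010, 1 and 5 in MC011, 4 and 9 in MC654, and 8 and 20 in MC659. Taking 3 counts as the floor of a library, which corresponds to 0.0262 to 0.0408 CPM and covers counting error only, 3 of the 4 KO-labelled libraries were at or below it. The line MC011, which had the most Dcn RNA, did not have the most Lum RNA. When Lum was tested with no filter, its adjusted p between the labels was 0.0799, and of the 6 pairs of lines only MC010 against MC659 passed both thresholds (adjusted p = 0.0137), on at most 2 counts per library in MC010.

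**Figure D2:**
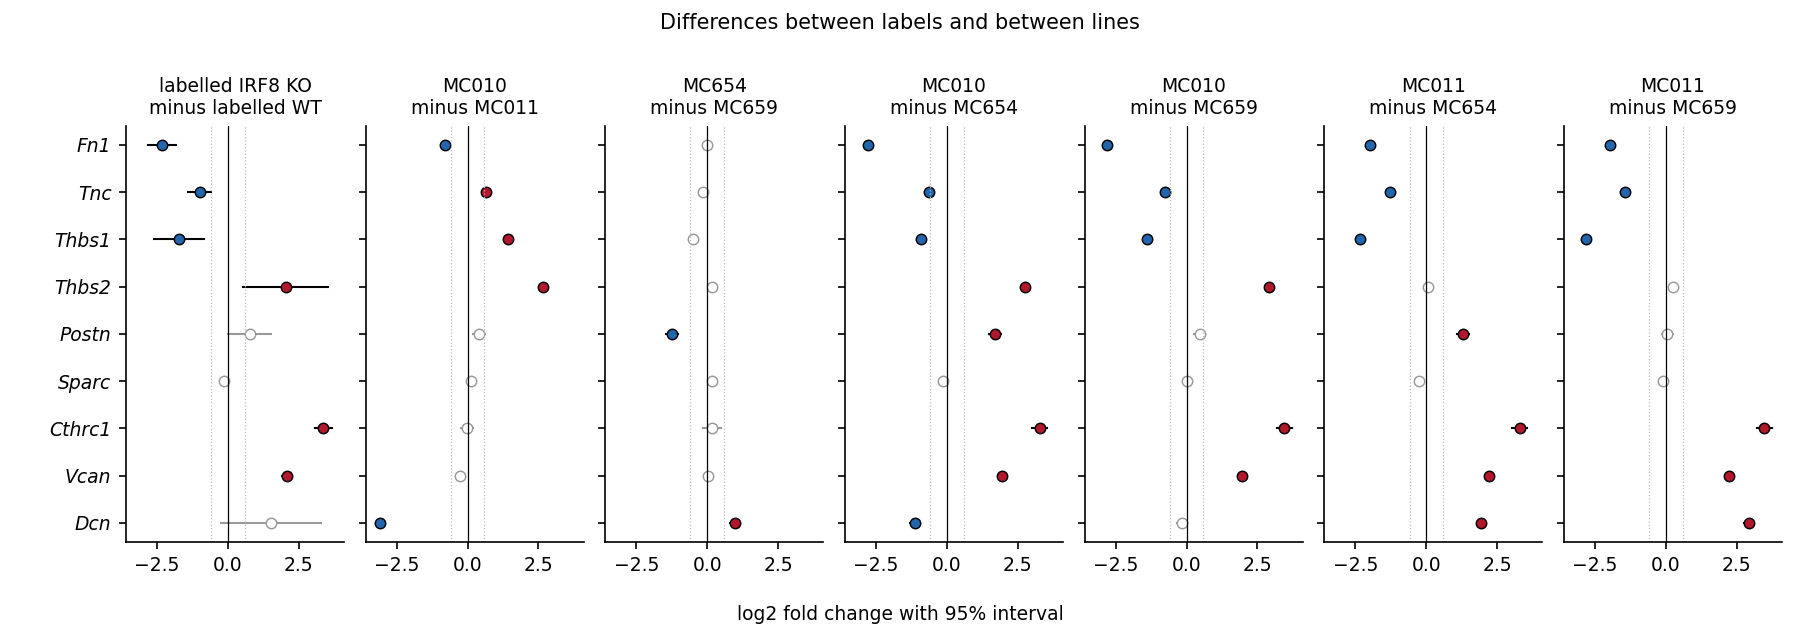
Log2 fold change of the 9 tested members (points, with 95% intervals as bars) between the labels and in the 6 pairs of lines, with filled points for called genes and dotted lines at the fold threshold of 0.59. Thbs2 and Dcn have wide intervals between the labels (-0.26 to 3.28 for Dcn), narrow intervals between lines, and differ by 2.68 and -3.08 between MC010 and MC011. Intervals between lines reflect only the spread between libraries of the same line, not between tumors.

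Over the 4 pairs of a KO-labelled with a WT-labelled line, 5 of the 9 members tested were called in one direction in all 4, where 14.1% of all genes were. These were Fn1, Tnc and Thbs1, lower each time (5.35% of all genes), and Vcan and Cthrc1, higher each time (8.74% of all genes). MC010 against MC654 gave 4 members higher and 4 lower (of all genes, 19.6% were higher and 16.3% lower, 35.9% in all), and MC010 against MC659 gave 3 and 3 (19.1% and 17.7%, 36.8% in all). MC011 against MC654 gave 4 higher and 3 lower (17.2% and 12.4%, 29.7% in all), and MC011 against MC659 gave 3 and 3 (16.6% and 13.7%, 30.3% in all). The 4 comparisons share lines and are not independent. Lines of one label also differed: MC010 against MC011 gave 3 members higher (Tnc, Thbs1 and Thbs2) and 2 lower (Fn1 and Dcn), where 15.7% of all genes were higher and 16.0% lower (31.6% in all), and MC654 against MC659 gave 1 higher (Dcn) and 1 lower (Postn), where 1.24% were higher and 3.71% lower (4.95% in all). The difference between the 2 libraries of a line was small beside these, at most 1.22-fold for any of the 9 members.

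Scaled per kb of exon, so that genes can be compared, Fn1 and Sparc were the members with the highest levels in MC011, at 173 and 334 CPM per kb. In MC654 and MC659 the highest was Fn1 (681 and 684 CPM per kb), followed by Sparc and Thbs1, which changed places between those lines (402 and 333 CPM per kb in MC654, 361 and 466 in MC659). In MC010 the order was Sparc (368), Thbs2 (216), Thbs1 (178) and Fn1 (98.7 CPM per kb). The 2 thrombospondins therefore exchanged rank. The ratio of Thbs1 to Thbs2 counts per kb was 0.827 and 0.819 in the libraries of MC010, 1.97 and 1.96 in MC011, 10.4 and 10.3 in MC654, and 16.5 and 16.4 in MC659. Fn1 and Vcan moved in opposite directions in both KO-labelled lines, as did other pairs of the members. The ratio of Fn1 to Vcan was 2.19 and 1.99 in MC010, 3.14 and 3.00 in MC011, 58.3 and 53.2 in MC654, and 53.7 and 59.2 in MC659. Such ratios within a library do not depend on its scaling. The 10 members together took up 0.486 to 0.586% of the counts of a KO-labelled library and 1.18 to 1.28% of a WT-labelled one.

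**Figure D3:**
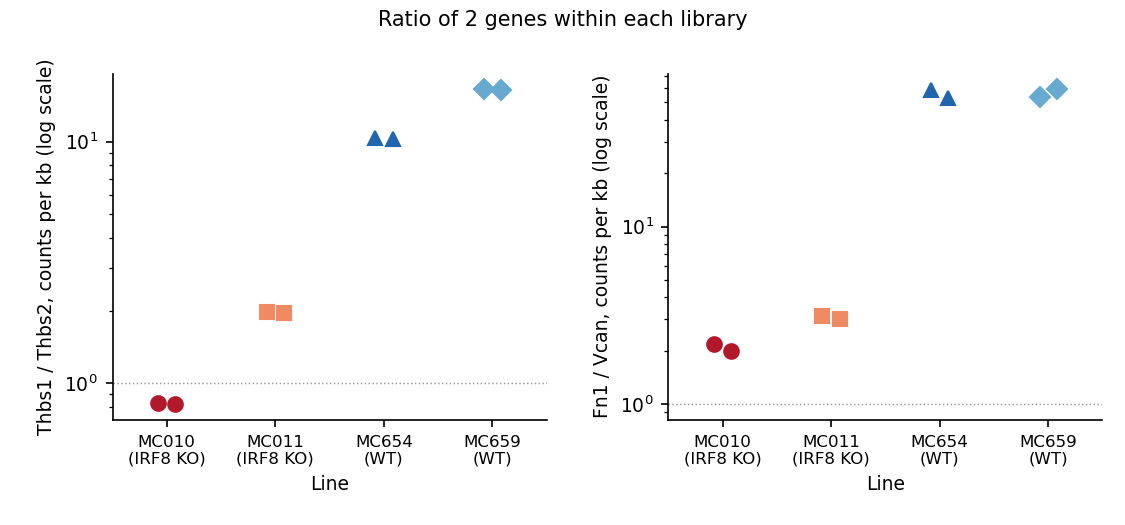
Ratio of Thbs1 to Thbs2 (left) and of Fn1 to Vcan (right), in counts per kb of exon within each of the 8 libraries, on log axes with a dotted line at equal levels. Thbs1 is below Thbs2 in MC010 alone, at 0.819 and 0.827, and Fn1 exceeds Vcan in every library, by 1.99 to 3.14 in KO-labelled and 53.2 to 59.2 in WT-labelled libraries.

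Other matricellular genes, a list of 26 in the table of which 23 were tested, gave 12 higher and 3 lower in the KO-labelled libraries. Of all genes tested, 13.7% were higher and 8.72% lower. The median log2 fold change of the list was 1.13 against 0.02 for all genes tested. The 3 that fell were all of the CCN family, which includes targets of the YAP co-activator: Cyr61 (-1.85, adjusted p = 7.80e-06), Ctgf (-1.24, adjusted p = 0.00692) and Wisp1 (-1.41, adjusted p = 0.00907). The other called CCN genes, Wisp2 (4.08, adjusted p = 0.00132) and Nov (1.67, adjusted p = 0.0493), rose. For Nov the high line was MC011 (24.2 CPM), while MC010 (5.08 CPM) lay beside MC654 (5.09 CPM) and MC659 (4.13 CPM). Also higher were the tenascin Tnxb (3.08, adjusted p = 0.000752), the fibulins Fbln1 (1.47, adjusted p = 0.000159) and Fbln5 (2.26, adjusted p = 0.000487), and Ecm1 (2.13, adjusted p = 0.00231). Osteopontin, Spp1, had 1472 CPM in MC010, 366 in MC011, 1275 in MC654 and 1166 in MC659 and was not called. Spock1 had 0 counts in all WT-labelled libraries, 1.02 CPM in MC010 and 0.160 CPM in MC011. The number called was 7 higher and 1 lower without MC659, and the number lower was 5 without MC010 and 6 without MC011. Over all genes, 3404 were called with all lines, 4735 without MC010, 5827 without MC011, 2079 without MC654 and 1884 without MC659. Counts of the lists below with a line left out are to be read beside these. Between MC010 and MC011 the list gave 5 higher and 12 lower in MC010, where 15.7% of all genes were higher and 16.0% lower.

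Of 8 other small leucine-rich proteoglycans tested, 4 were higher and 1 was lower (13.7% and 8.72% of all genes). The median log2 fold change was 1.02. In limma-voom with a random block per line, 1 was higher. Osteomodulin, Omd, rose by 3.40 (adjusted p = 1.99e-05), with 9.10 and 13.0 CPM in MC010 and MC011 against 0.992 and 1.11 CPM in MC654 and MC659. Mimecan, Ogn, fell by 2.93 (adjusted p = 4.83e-06), with 6.25 and 5.49 CPM against 39.1 and 50.3 CPM. Prelp, which like Dcn was highest in MC011, had 47.5 CPM there and 0.380 CPM in MC010, and no WT-labelled library exceeded the floor of 3 counts. Aspn (1.22, adjusted p = 0.0333) and Ecm2 (1.28, adjusted p = 0.0190) were the other members of this list that rose. The number higher ranged from 1 (without MC654) to 3 with a line left out, and was 2 without MC659 or without replicate 1 of MC654.

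Among genes of versican's partners, 3 of 12 tested hyalectan and hyaluronan genes were higher and 2 lower (median 0.24). Of all genes, 13.7% were higher and 8.72% lower. The hyaluronan receptor Cd44 rose by 0.67 (adjusted p = 0.00269), the hyaluronan-degrading Cemip by 3.60 (adjusted p = 0.000591) and the synthase Has3 by 2.82 (adjusted p = 0.0280), with Has3 high in MC010 alone (7.91 CPM, against 0.967 in MC011, 0.826 in MC654 and 0.431 in MC659). In contrast, the synthase Has2 fell by 0.76 (adjusted p = 0.000122) and aggrecan, Acan, fell by 3.64 (adjusted p = 0.00266). The number higher was 1 without MC659 or without replicate 2 of MC010, and the number lower was 5 without MC010. Of 19 genes of chondroitin and dermatan sulfate synthesis, 5 were higher and 2 lower (median 0.03), beside the same shares of all genes. The sulfotransferase Chst15, which makes the E unit of chondroitin sulfate, had 46.6 and 57.8 CPM in MC010 and MC011 against 1.17 and 0.823 CPM in MC654 and MC659, a log2 fold change of 5.71 (adjusted p = 4.04e-06). Xylt1, which starts the sugar chain, rose by 2.00 (adjusted p = 2.92e-05) and Csgalnact2 by 0.84 (adjusted p = 0.000131), while the chain polymerase Chsy1 fell by 0.67 (adjusted p = 0.000182). In this list the number lower was 5 without MC011, 4 without replicate 1 of MC011 and 4 in DESeq2.

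Of 20 receptors and assembly factors tested, 5 were higher and 4 lower (median -0.04), where 13.7% of all genes were higher and 8.72% lower. The 4 lower ones were both chains of the main fibronectin receptor, Itga5 (-0.85, adjusted p = 0.000119) and Itgb1 (-0.84, adjusted p = 0.000109), as well as Itgb3 (-0.99, adjusted p = 0.00443) and Lrp1 (-1.21, adjusted p = 0.000145), an endocytic receptor of thrombospondins. The 5 higher ones were the integrin chain Itga8 (7.45), Stab1 (2.41), the syndecans Sdc3 (1.53) and Sdc2 (0.75), and Fzd6. Itga8 had 13.9 CPM in MC010, 1.71 in MC011, 0.0537 in MC654 and 0.0338 in MC659. Fzd6, a receptor of the WNT pathway in which CTHRC1 acts, had 43.4 and 28.8 CPM in MC010 and MC011 against 2.70 and 2.30 CPM in MC654 and MC659 (log2 fold change 3.85, adjusted p = 8.99e-06). Cd47, a receptor of thrombospondin-1, had a log2 fold change of 0.57 (adjusted p = 0.000904), under the fold threshold. Without MC011 the number lower was 9. Of 15 genes of fibrillar collagens and their processing enzymes, 2 were higher and 3 lower (13.7% and 8.72% of all genes). Their median was -0.11, and limma-voom with a random block per line gave 1 higher. The collagens Col5a2 (-1.61, adjusted p = 0.00143) and Col5a3 (-1.58, adjusted p = 0.0462) and the lysyl oxidase Lox (-1.33, adjusted p = 0.0255) fell. Both genes that rose, Loxl2 (2.97, adjusted p = 0.00239) and Loxl4 (0.66, adjusted p = 0.0142), encode enzymes of the same family and no collagen was called higher, while Col1a1, with 87.4 CPM in MC010, 440.0 in MC011, 275.8 in MC654 and 471.7 in MC659, was not called. The counts of this list changed with a line left out. The number higher was 5 without MC010, 0 without MC654 and 1 without MC011 or MC659. The number lower was 6 without MC011 and 1 without MC654 or MC659. Counts over all genes moved too: 3404 with all lines, 4735 without MC010, 5827 without MC011, 2079 without MC654 and 1884 without MC659. Leaving out a library of MC011 gave 1 higher and a library of MC659 gave 1 lower. Between MC010 and MC011, 1 gene of the list, Col1a2 (1.66), was higher and 10 were lower in MC010. Of the members, Fn1 and Dcn were also lower in MC010, whereas Tnc, Thbs1 and Thbs2 were higher. Of all genes, 15.7% were higher and 16.0% lower in MC010. None of the genes of these lists was called between the labels when line sums were compared.

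**Figure D4:**
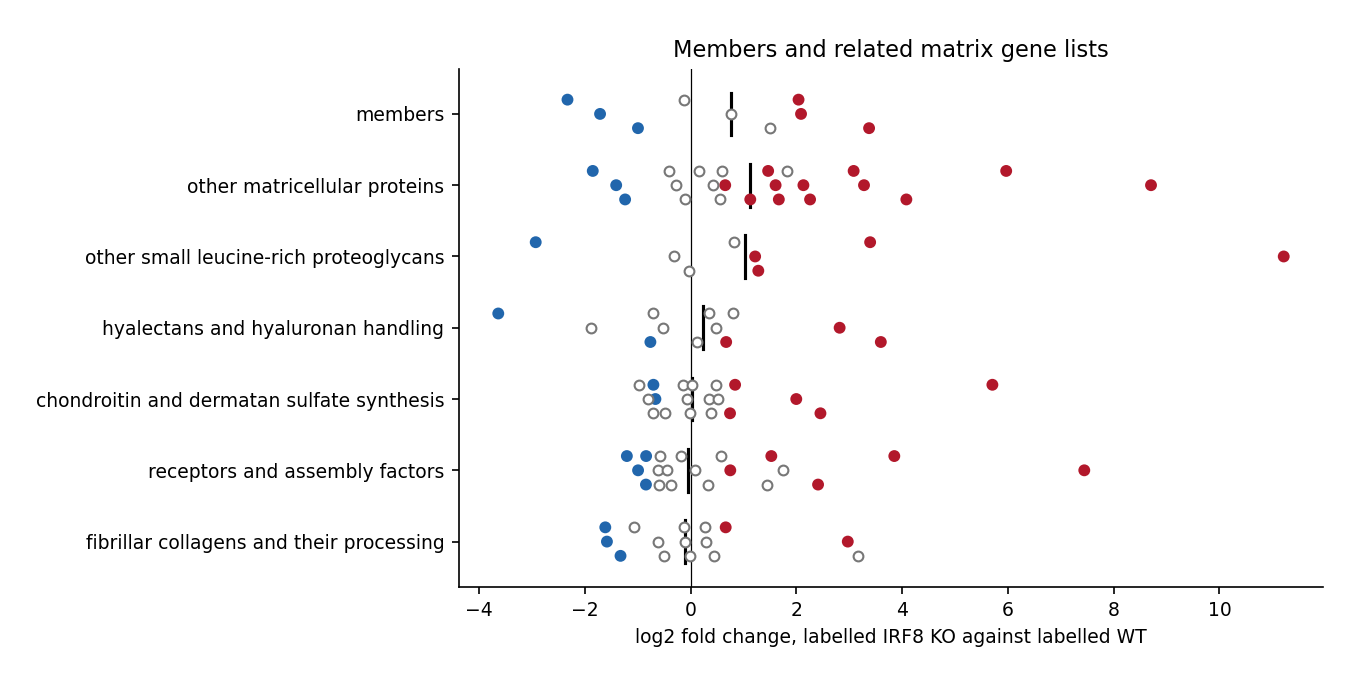
Log2 fold change between the labels for each tested member and each tested gene of the 6 related lists, with filled points for called genes and a vertical bar at the median of each list. The medians run from 1.13 for other matricellular proteins to -0.11 for fibrillar collagens and their processing, and the fitted values of genes with almost no counts in WT-labelled libraries (such as Spock1 and Prelp) depend on the fit's prior count and have no set size.

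The genes whose pattern over the 4 lines was most like each member were found by the root mean square difference of centered log2 CPM line means, among 10678 genes with a mean log2 CPM of at least 1. With only 4 line means, likeness is easily reached: 5373 genes lay within 0.25 of Sparc and 207 of Tnc, but 37 of Vcan, 18 of Thbs1, 17 of Fn1, 12 of Cthrc1, 10 of Postn, 9 of Thbs2 and 1 of Dcn. The nearest to Fn1 were Clip3 (0.12) and Otub2 (0.14), to Thbs1 Neat1 (0.08) and Trim21 (0.09), and to Vcan Trim16 (0.05) and Kitl (0.05). Cthrc1 was nearest to Pgbd5 (0.08) and Cavin2 (0.10). Thbs2 was nearest to Itgbl1 (0.09), an integrin beta-like gene with 265 CPM in MC010 and 48.5, 42.8 and 40.1 CPM in MC011, MC654 and MC659, and then to Prss12 (0.16). Nothing beyond a like order of levels follows from this measure.

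Some members overlap other annotated genes on the opposite strand. Reads from stretches where exons overlap can be told apart only if the counting used the strand, and this is not stated. Apol7d, over Fn1, had 7 to 28 counts and 8030451A03Rik, over Tnc, 5 to 62, beside at least 83951 counts for Fn1 and 2607 for Tnc in every library. Gm29233, over Thbs1, was not in the count table. Gm4117, within Vcan but with no overlap of exons, had 26 to 153 counts, beside at least 14407 for Vcan in every library. Among the neighbors of Vcan, which rose, Xrcc4 had 762 to 1073 counts in every library, and Edil3, another secreted matrix protein, had 358 to 774 counts in KO-labelled and 1295 to 1764 in WT-labelled libraries.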

How the data were processed

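RNA of 8 libraries (2 per line, 4 lines) was sequenced as stranded mRNA libraries. The authors aligned reads to mm10 (GRCm38.p6) and deposited raw counts per gene. The submitters' processing notes list STAR 2.7.3a, HTSeq 0.11.2 and DESeq2. The paper's methods give other versions of the first pair, and the strand option is not stated. The deposited table also holds a scaled signal per library (count divided by a size factor) and the authors' comparison of the genotypes: the mean of the scaled signal, the log2 fold change, its standard error, the Wald statistic and p-values. None of these was used.

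Every gene of the table had at least 20 counts over all libraries, and 0 of its genes were on chromosomes X or Y, which were not analysed here. Raw counts were filtered by filterByExpr (15153 of 18768 genes kept), normalized by TMM and compared with edgeR 4.0.16 (R 4.3.3, robust quasi-likelihood test, Benjamini-Hochberg adjustment over all genes tested). The first fit had the label as its only term, and the second had 1 group per line. Genes were called at an adjusted p under 0.05 and an absolute log2 difference above 0.59. Standard errors came from the fold change and the F statistic. The code was tested on simulated data. Exon lengths came from GENCODE M21, in which 18742 of the gene IDs were found. Its coordinates for Thbs2 differ from those of the table, which are the ones given. Python 3.11.15 was used for the rest.

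The 10 members and all gene lists were chosen with earlier results of these data known. Genes named are the members, Irf8, genes of the lists, the 2 nearest genes of each member and the neighbors of Lum, Dcn and Vcan. Krt8, Krt18, Acta2 and Tagln belong to the marker lists. Protein sequences were not analysed here. Alternatives were DESeq2 1.42.0, no filter, upper-quartile scaling, library totals, the library number as a block, sums per line, limma-voom (limma 3.58.1) with a random block per line, each library or line left out, and no fold threshold. Alternatives of the related lists, and of the number of members called in all 4 pairs, were added after seeing the data.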

Additional observations from a re-analysis of the deposited data

Results flagged for a closer look

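For 5 members the change against the WT-labelled lines differed between MC010 and MC011, by edgeR's test of the difference itself. On the log2 scale, MC010 minus MC011, it was -0.81 for Fn1, 0.66 for Tnc, 1.42 for Thbs1, 2.68 for Thbs2 and -3.08 for Dcn. Since both lines are set against the same 2 WT-labelled lines, this equals the difference between MC010 and MC011 themselves. Fn1, Tnc and Thbs1 were lower than both WT-labelled lines in each of the 2, so that for these the size differed and the direction did not. Thbs2 was called in MC010 alone. Dcn was lower in MC010 than in MC654 (-1.14) and higher in MC011 than in MC654 (1.93). Between MC010 and MC011, Postn (0.41), Sparc (0.14) and Vcan (-0.25) also had an adjusted p under 0.05 but stayed under the fold threshold. In none of the 20 groups of 4 libraries examined for an outlying library was one found by Dixon's criterion. Each group held 2 lines with 2 libraries each. Where the lines differ they set the range, so this check could hardly find an outlying library.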

How the results depend on the processing

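Of 873 values of the 9 members under the alternatives, 841 kept their direction and side of the threshold, 21 fell short of the threshold, 2 newly passed it and 9 changed sign. Many of these values compare 2 lines with a library of another line left out, where the counts of both lines stay the same. Between the labels with sums per line, 3 values stayed as they were and 6 fell short of the threshold. With sums per line, the number of members called between the labels went from 3 higher and 3 lower to 0 and 0, and that of all genes from 3404 to 0, where fewer samples remain. It was 1876 genes in limma-voom with a random block per line, and 1884 (without MC659) to 5827 (without MC011) with a line left out. Without MC659, 1 member was lower. Without a fold threshold, 5 members were higher in MC010 than in MC011, and between MC654 and MC659 3 were higher and 2 lower. With 1 library left out, 2 to 3 members were higher and 3 were lower between the labels, and 4 to 5 were called one way in all 4 pairs, since Tnc in MC010 against MC654 was at -0.58 without replicate 2 of MC010 and at -0.59 without replicate 1 of MC654. Sign changes were the Dcn label difference (-0.73 without MC011) and, with 1 library left out, values near 0: Fn1 between MC654 and MC659 (-0.038 to 0.026), Vcan between them (-0.041 to 0.065), Sparc between MC010 and MC659 (-0.001 to 0.069) and Cthrc1 between MC010 and MC011 (-0.106 to 0.071). The cause was not tested. Of the related lists, limma-voom called 1 small leucine-rich proteoglycan and 1 gene of the collagen and processing list higher, in place of 4 and 2. The library numbers did not pair the libraries (correlations of -0.024 to 0.046 between lines), and with the replicate block Thbs2 lost its call (2.04, adjusted p = 0.0650) and no other member did. With 2 lines per label, depth was not the limit for 9 members, and Lum had at most 20 counts in a library.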
